A study of Mus musculus with 4 samples.

Results

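The genes described here are 30 mouse genes for lysosomal enzymes, their cofactors and lysosomal membrane proteins, out of 13478 genes measured with both constructs of an RNA immunoprecipitation experiment on Lin28b. They were chosen by name for their function, and all 30 had a level in every library. The experiment used mouse pancreatic cancer-associated fibroblasts, the stromal cells of pancreatic tumours, of the line labelled 15376CAFs. These cells overexpressed a Flag-tagged Lin28b, either wild type (Lin28b-WT) or a mutant deficient in RNA binding (Lin28b-MU), and RNA held by the tagged protein was recovered with an anti-Flag antibody (the IP) and sequenced beside the input RNA of the same kind of cells. There were 4 libraries in 4 groups, an IP and an input for each construct. All groups share the cell line and the overexpression of a tagged protein, and the labels give no strain, time point, clone number or further treatment. With 1 library in each group there was no replicate error, so every value below describes single libraries and no difference was tested. The comparison asks which RNAs were held by the wild-type protein, with the mutant as the control.

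Lysosomes are the acidic compartments in which cells break down proteins, sugar chains and lipids. Most of their soluble enzymes are made as precursors on the endoplasmic reticulum, tagged with mannose 6-phosphate in the Golgi apparatus and delivered by receptors, while glycosylated membrane proteins line the limiting membrane, carry products out or release ions. Inherited loss of many of these genes causes a lysosomal storage disease. Fibroblasts have long been used to study such diseases, since they express most of the enzymes. Lin28b is an RNA-binding protein that blocks the maturation of let-7 microRNAs and also binds mRNAs. Its own gene, Lin28b, stood at 13.8 FPKM (fragments scaled by gene length and library size) in the wild-type input and 8.99 in its IP, and at 30.01 in the mutant input and 36.7 in its IP, with log2 ratios of IP over input of −0.62 and 0.29. The Lin28b level was thus 2.18-fold higher in the mutant input than in the wild-type input. Hmga2, a let-7 target, was recovered at 371 from an input of 39.5 with the wild type and at 23.7 from 14.6 with the mutant.

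Many lysosomal genes are known to share a promoter element called CLEAR, built around the core CACGTG, which is bound by the transcription factor TFEB and its relatives. The stretches below show a longer form, TCACGTGA, where it was found in windows of 300 bases. Each window runs from 250 bases before to 50 after a RefSeq start of the gene (GRCm38.p6). That start need not be the 5′ end of the gene span used for the ratios, which was chr2:164832873 for Ctsa and chr7:126585817 for Cln3. The stretches of Ctsa, Cln3, Ctsd and Mcoln1 lay inside that span, and those of Gla outside it. They are shown as a DNA feature already known for lysosomal genes, so the counts below describe these genes and test nothing. RNA recovery does not measure promoter activity. Each line runs 5′ to 3′ on the strand of the gene, and capitals mark TCACGTGA, a sequence that reads the same on both strands.
Ctsa, first match, chr2:164833750-164833777, plus strand: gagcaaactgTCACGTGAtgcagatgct
Ctsa, second match, chr2:164833767-164833794, plus strand: atgcagatgcTCACGTGAccagagctac
Cln3, chr7:126583341-126583368, minus strand: acgggtactgTCACGTGAcccccaacct
Ctsd, chr7:142387909-142387936, minus strand: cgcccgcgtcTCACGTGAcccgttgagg
Mcoln1, chr8:3500463-3500490, plus strand: ggcgccccgcTCACGTGAccgcggcgca
Gla, first match, chrX:134601216-134601243, minus strand: aagcgattgaTCACGTGAgcatctacgt
Gla, second match, chrX:134601183-134601210, minus strand: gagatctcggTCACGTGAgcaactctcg

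Windows were held for 26 of the 30 genes, and 5 of these 26 contained TCACGTGA, against 1.12% of all 27025 genes with a window and 2.28% of the 9549 of them that are in both gene tables. The core CACGTG, which the longer form contains and which also reads the same on both strands, was in 10 of the 26 (the 5 above and Ctsl, Gaa, Glb1, Lamp1 and Naglu), against 8.09% of all genes and 11.8% of those in both tables. A match describes letters in a window and is not a measured binding site. The 5 genes with TCACGTGA did not share a direction of RNA recovery: Gla lay above input with both constructs, Ctsd with the mutant but not with the wild type, and Ctsa, Cln3 and Mcoln1 below input with both.

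In the inputs, the lysosomal genes were well expressed, and their levels were close in both cell populations. The levels are the authors' values per gene length, read as FPKM, so genes may be compared with each other. The median of the 30 genes was 35.0 FPKM in the WT input and 35.4 in the mutant input, where the median protein-coding gene stood at 11.4 and 11.7. The highest was Lamp1, at 243 in the WT input and 234 in the mutant input. The lowest was Gm2a, at 5.31 and 2.06. Across the 30 genes the levels of the 2 inputs had a Spearman rho of 0.916, and across 11260 protein-coding genes it was also 0.916; this is a correlation over genes of the same 2 libraries, and genes are not independent replicates.

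Only 2 of the 30 genes differed 2-fold or more between the inputs, both higher in the wild-type input, where 8.32% of all genes stood; none was 2-fold higher in the mutant input, where 8.70% of all genes stood. Ctsh, which encodes the aminopeptidase cathepsin H, stood at 44.3 FPKM in the WT input and 3.84 in the mutant input, an 11.5-fold difference. Gm2a, which encodes the activator protein that presents ganglioside GM2 to hexosaminidase, stood 2.57-fold higher in the wild-type input. The other genes lay within 1.64-fold of each other. The inputs may have been normalised separately by the authors, which the labels do not state. In bulk RNA a smaller number of expressing cells and less RNA per cell cannot be told apart.

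**Figure D1:**
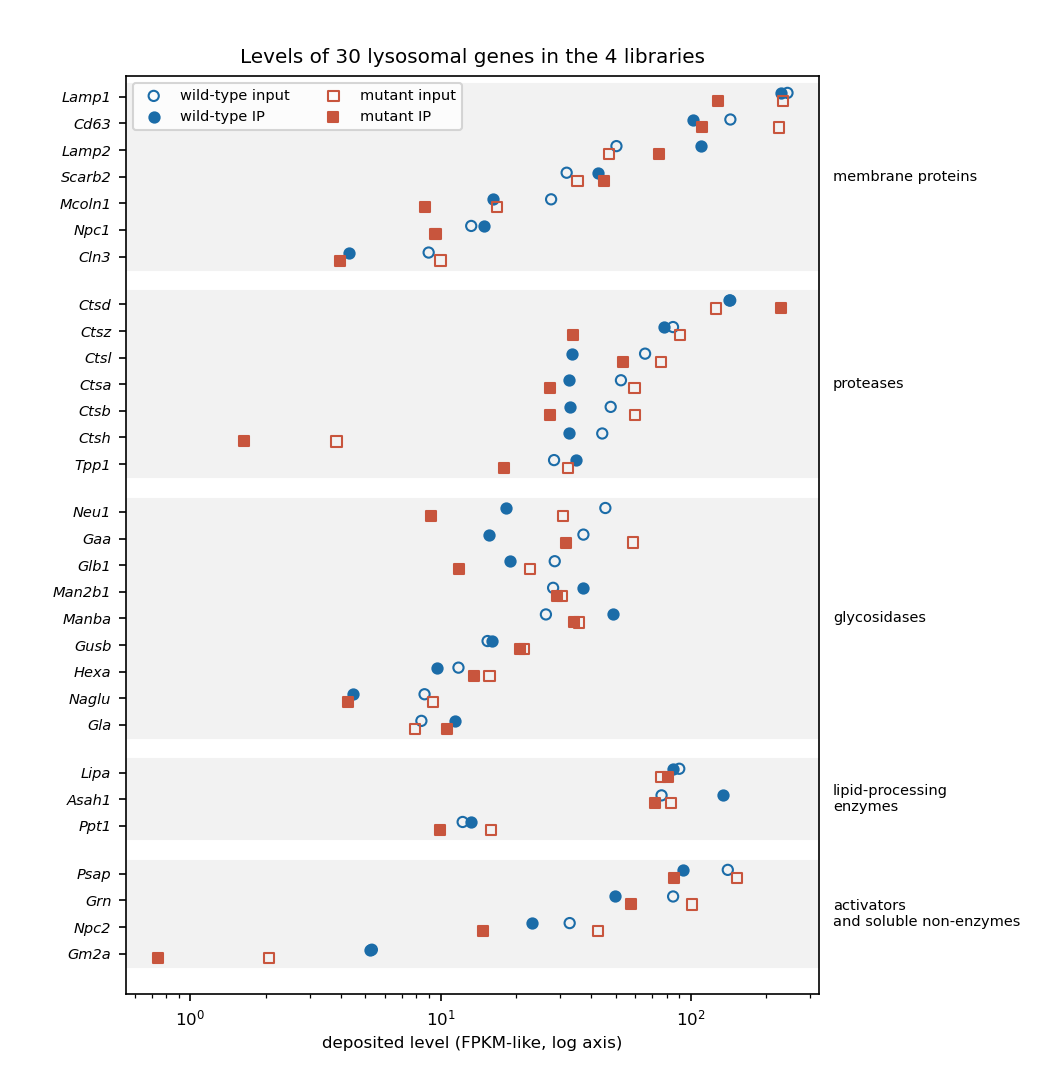
Levels of the 30 lysosomal genes in the 4 libraries, on a log axis (FPKM-like), by role and ordered by the wild-type input; open symbols are inputs, filled symbols IPs, circles the wild type and squares the mutant. Input pairs lie close together except for Ctsh (44.3 and 3.84) and Gm2a (5.31 and 2.06), and Lamp2 has both filled symbols to the right of the open ones.

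The identity of the cells was checked on marker genes. Of 13 fibroblast markers, 6 were in both tables, with a summed level of 820 FPKM in the WT input and 708 in the mutant input. Vim, Fn1 and Sparc carried most of it, whereas Col1a1 stood at 0.722 and 0.404, Acta2 at 0.227 and 0.524, and Pdgfra at 1.33 and 0.860. The defining fibroblast genes Col1a2, Col3a1, Pdgfrb, Dcn, Lum, Fap and Thy1 were not in both tables. Of 8 epithelial markers, 5 were in both, with sums of 2014 and 1377, above those of the fibroblast markers. The keratin genes Krt19, Krt8 and Krt18 made up most of it, at 665, 601 and 395 in the wild-type input and 322, 494 and 441 in that of the mutant. Of 9 macrophage and leukocyte markers, the cells richest in lysosomes, 3 were in both (Cd14, Mrc1 and Cd68), with sums of 65.9 and 69.5 in the inputs and 72.6 and 55.6 in the IPs, while the pan-leukocyte gene Ptprc and the macrophage genes Adgre1, Csf1r and Lyz2 were not in both tables. Of 5 endothelial markers, none was in both. The part of other cell types in the lysosomal levels was not tested.

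In the wild-type IP the lysosomal RNAs as a whole were recovered about as the average gene was. Recovery is given as the log2 ratio of the IP level over the input level, with 0.01 added to both. The median ratio of the 30 genes was −0.20 (lowest −1.32, highest 1.13), where that of all 13478 genes was −0.28. A gene was called where its IP level lay at least 2-fold above or below input. By this rule 1 of the 30 lay above input, Lamp2, where 7.74% of all genes did, and 3 lay below input, Cln3, Gaa and Neu1, where 21.7% of all genes did. Both shares were below the background, and neither was tested.

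In the mutant IP the ratios were lower. The median of the 30 genes was −0.84 (lowest −1.75, highest 0.86), where that of all genes was −0.59. None of the 30 lay 2-fold above input, where 5.99% of all genes did, and 10 lay 2-fold below it, where 37.1% of all genes did. These 10 were the membrane protein genes Cd63 and Cln3, the protease genes Ctsa, Ctsb, Ctsz and Ctsh, the glycosidase genes Naglu and Neu1, and Gm2a and Npc2. Neu1 and Cln3 were thus below input with both constructs.

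The call counts depend on where the balance point of each table is set. All genes together had a median ratio of −0.29 in the wild-type table and −0.61 in the mutant table. With each table centred on that median, 3 lysosomal genes lay 2-fold above input in the wild type (Lamp2, Asah1 and Manba) and 1 below it (Neu1), and with Lin28b-MU 3 lay above (Ctsd, Lamp2 and Gla) and 1 below (Neu1). Among all genes the centred shares were 13.5% above and 14.1% below in the wild type, and 17.4% and 22.5% with Lin28b-MU. On the centred scale the median of the 30 genes was 0.09 with Lin28b-WT and −0.24 with Lin28b-MU. Centring raises every wild-type ratio by 0.29 and every mutant ratio by 0.61, so "above" and "below" input in what follows hold for the deposited scale, and genes within those distances below input lie on the other side once centred.

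**Figure D2:**
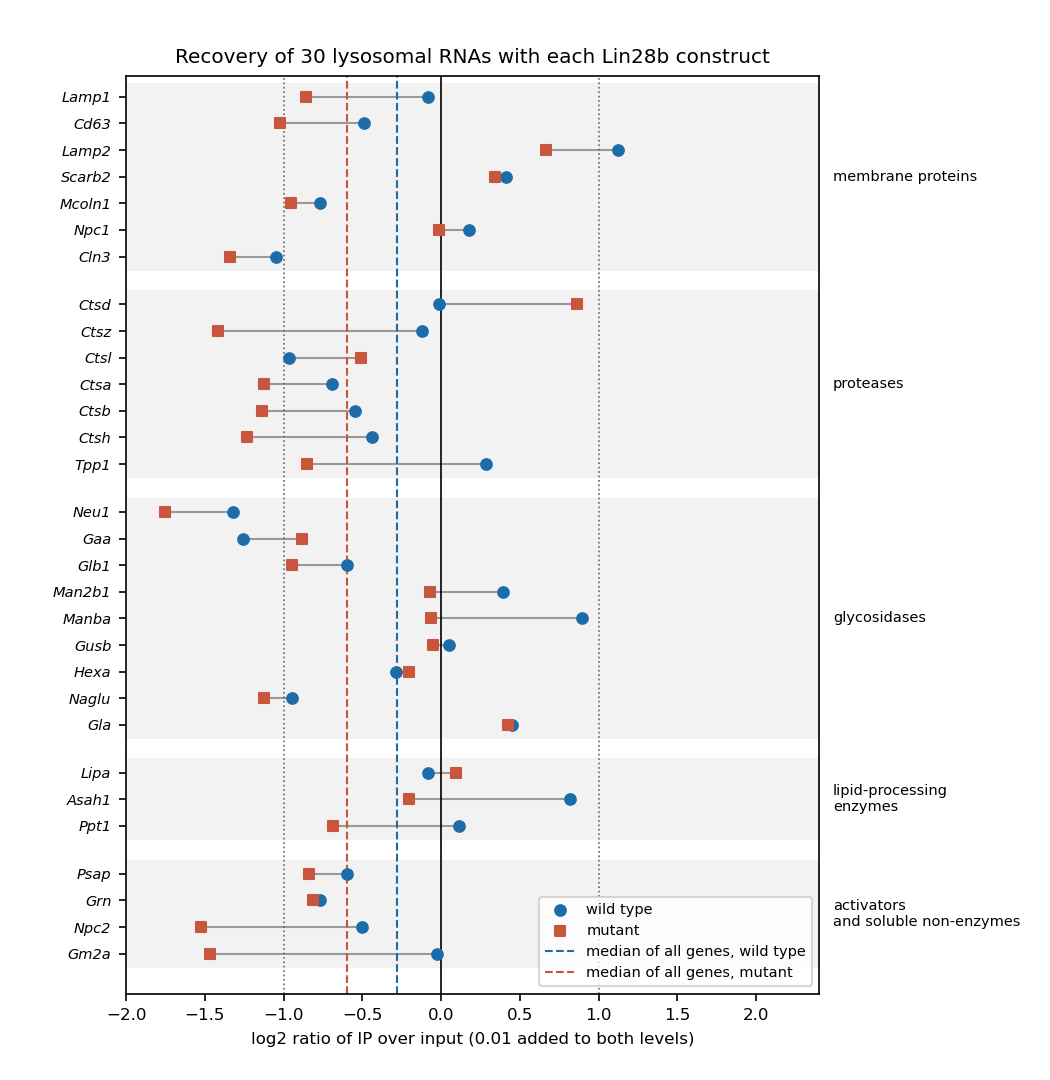
Log2 ratio of IP over input for each of the 30 lysosomal genes, with the wild type as circles and the mutant as squares joined by a grey line; dashed lines mark the median of all genes in each construct (−0.28 and −0.59) and dotted lines 2-fold. In 25 genes the circle lies to the right of the square (16 once each table is centred), and Ctsd has the longest line the other way, from −0.01 in the wild type to 0.86 with Lin28b-MU.

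The membrane protein genes held the best recovered RNA of the 30 in the wild-type IP, that of Lamp2. Lamp2, which encodes a major glycoprotein of the limiting membrane needed for chaperone-mediated autophagy, stood at 50.4 FPKM in the WT input and 110.1 in its IP, and at 47.1 in the MU input and 74.8 in its IP. Both IPs were above both inputs, by 2.18-fold with Lin28b-WT and 1.59-fold with Lin28b-MU, and Lamp2 was the only one of the 30 called above input. Its close relative Lamp1, which encodes the other main glycoprotein of the membrane, stood at 243 in the WT input and 229.8 in its IP, and at 234 in the MU input and 129 in its IP. The wild-type pair differed by 1.06-fold and the mutant IP was the low library. The log2 ratios were thus 1.13 and 0.67 for Lamp2 against −0.08 and −0.86 for Lamp1, although the genes encode proteins of the same family.

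Scarb2, which encodes the membrane receptor that carries glucocerebrosidase to lysosomes, was slightly higher in both IPs, at 31.9 in the WT input and 42.4 in its IP, and at 35.3 and 44.8 for the mutant. Npc1, which encodes the membrane protein that exports cholesterol, hardly moved, at 13.3 and 15.0 for the wild type and 9.62 and 9.54 for the mutant. The tetraspanin gene Cd63 was lower in both IPs, at 144 and 102 for the wild type and 225 and 111 for the mutant. Mcoln1, which encodes a cation channel of the lysosomal membrane, also lay below input with both constructs, at 27.6 and 16.2 for the wild type and 16.9 and 8.69 for the mutant. Cln3, whose loss causes juvenile neuronal ceroid lipofuscinosis, had less than its input level in both IPs: it stood at 8.96 and 4.32 for the wild type and 10.0 and 3.95 for the mutant, 2.07-fold and 2.53-fold lower. With a pseudocount of 1 its wild-type ratio was −0.90, no longer a 2-fold call. The difference between the constructs was above 0 in all 7 membrane protein genes, from 0.07 to 0.77 on the log2 scale, but after centring in 3 of them, Lamp1, Lamp2 and Cd63. Among all genes it was above 0 in 63.2% as deposited and 50.5% after centring.

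Among the protease genes, Ctsd was above input in the mutant IP, unlike the rest. Ctsd, which encodes the aspartic protease cathepsin D, stood at 144 FPKM in the WT input and 143 in its IP, and at 126 in the MU input and 230.0 in its IP. The mutant IP was the highest of the 4 libraries, 1.82-fold above its input, and the other 3 libraries lay between 126 and 144. Ctsd had the highest mutant ratio of the 30 genes (0.86) and the most negative difference between the constructs, −0.88. Part of the gene's span, 6.76 kb, is also annotated on the same strand as the predicted gene Gm49369, which stood at 0.485 in the MU input and 0 in the mutant IP.

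The other 6 protease genes were below input in the mutant IP. Ctsz, which encodes the carboxypeptidase cathepsin Z, stood at 84.9 in the WT input and 78.1 in its IP, and at 90.3 in the MU input and 33.8 in its IP, so only the mutant IP was low, by 2.67-fold. Tpp1, which encodes tripeptidyl peptidase, stood at 28.4 and 34.6 for the wild type and 32.2 and 17.9 for the mutant. Its wild-type IP was 1.22-fold above input and its mutant IP 1.80-fold below. The differences between the constructs were 1.30 for Ctsz and 1.13 for Tpp1.

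Ctsa, which encodes the protective protein that stabilises beta-galactosidase and neuraminidase, stood at 52.6 and 32.5 for the wild type and 59.5 and 27.3 for the mutant. Ctsb, encoding the cysteine protease cathepsin B, had nearly the same pattern, at 47.8 and 32.8 for the wild type and 59.9 and 27.3 for the mutant. Both were below input with both constructs, more than 2-fold with Lin28b-MU. Ctsh stood at 44.3 and 32.7 for the wild type and at 3.84 and 1.63 for the mutant, 2.34-fold lower in the mutant IP, but from an input 11.5-fold below that of the wild type. With a pseudocount of 1 its mutant ratio was −0.88, no longer a 2-fold call. Ctsl, encoding cathepsin L, was the other protease gene besides Ctsd with a lower ratio in the wild type: it stood at 65.6 and 33.6 for the wild type and 76.1 and 53.6 for the mutant.

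The glycosidase genes, whose products trim sugar chains from glycoproteins, glycolipids and matrix polymers, spread widely. Neu1, which encodes the lysosomal sialidase, stood at 45.5 FPKM in the WT input and 18.2 in its IP, and at 30.8 in the MU input and 9.14 in its IP. It was the lowest of the 30 genes with both constructs, 2.50-fold and 3.37-fold below input, and it also has the shortest span, 4.70 kb. Gaa, which encodes the alpha-glucosidase that degrades glycogen, stood at 37.2 and 15.6 for the wild type and 58.7 and 31.8 for the mutant. It was 2.39-fold below input with Lin28b-WT and 1.84-fold below with Lin28b-MU.

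Manba and Man2b1, which encode beta-mannosidase and alpha-mannosidase of N-glycan breakdown, were above input with the wild type alone. Manba stood at 26.4 and 48.9 for the wild type and 35.6 and 34.2 for the mutant. Man2b1 stood at 28.2 and 36.9 for the wild type and 30.5 and 29.1 for the mutant. The wild-type IP was thus the highest of the 4 libraries for both genes, by 1.86-fold and 1.31-fold over input, short of the 2-fold rule, and the mutant IP was within 1.05-fold of its input. Gla, encoding alpha-galactosidase A, was slightly above input with both constructs, at 8.38 and 11.4 for the wild type and 7.88 and 10.6 for the mutant.

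Of the remaining glycosidase genes, Naglu, which encodes a heparan sulfate-degrading glucosaminidase, stood at 8.63 and 4.46 for the wild type and 9.34 and 4.27 for the mutant. Glb1, encoding beta-galactosidase, stood at 28.6 and 18.9 for the wild type and 22.7 and 11.8 for the mutant. Both lay below input in both IPs, and with a pseudocount of 1 the mutant ratio of Naglu was −0.97, no longer a 2-fold call. Gusb, encoding beta-glucuronidase, stood at 15.4 and 16.0 for the wild type and 21.5 and 20.8 for the mutant. Hexa, encoding the alpha subunit of beta-hexosaminidase, stood at 11.8 and 9.68 for the wild type and 15.7 and 13.6 for the mutant. In these last genes IP and input differed by at most 1.22-fold with either construct. Of Glb1, 6.17 kb of the span is shared on the same strand with Tmppe, which stood at 1.90 to 4.49 FPKM.

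Of the genes for lipid-processing enzymes, Asah1 had the largest separation of the constructs. Asah1, which encodes acid ceramidase, stood at 76.4 FPKM in the WT input and 135 in its IP, and at 83.2 in the MU input and 72.2 in its IP. The wild-type IP stood apart from the other 3 libraries, which lay between 72.2 and 83.2. Its ratio was 0.82 with Lin28b-WT and −0.20 with Lin28b-MU, a difference of 1.03. Ppt1, which encodes the thioesterase that removes palmitate from proteins, stood at 12.3 and 13.2 for the wild type and 15.9 and 9.92 for the mutant. Lipa, encoding the acid lipase for cholesteryl esters, was within 1.07-fold of input with both constructs, at 89.9 and 85.0 for the wild type and 76.0 and 81.1 for the mutant.

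The activators and other soluble non-enzymes lay below input in all 8 pairs of values. Psap, the precursor of the saposins that help hydrolases act on sphingolipids, stood at 141 and 93.0 for the wild type and 153 and 85.6 for the mutant. Grn, the precursor of the granulins, stood at 85.0 and 49.8 for the wild type and 101 and 57.5 for the mutant. For both genes the ratios of the constructs were close, with differences of 0.24 and 0.04. Npc2, which encodes the soluble cholesterol carrier that works with Npc1, stood at 32.8 and 23.1 for the wild type and 42.6 and 14.8 for the mutant, 2.88-fold lower in the mutant IP. Gm2a stood at 5.31 and 5.22 for the wild type and 2.06 and 0.739 for the mutant, 2.76-fold lower in the mutant IP. Gm2a thus had the largest difference of the 30 genes, 1.44, at the lowest levels and with unequal inputs. With a pseudocount of 1 its difference was 0.79, behind Ctsz (1.27), Tpp1 (1.09), Asah1 (1.01), Npc2 (0.98) and Manba (0.93), and its mutant ratio of −0.81 was no longer a 2-fold call.

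The difference between the constructs, the wild-type log2 ratio minus the mutant log2 ratio, was above 0 in 25 of the 30 genes, where it was above 0 in 63.2% of all genes. Its median was 0.39, where that of all genes was 0.32. The difference reached 1 in 5 genes, Gm2a, Ctsz, Tpp1, Asah1 and Npc2, where 26.1% of all genes reached it, and was −1 or less in none, where 7.37% of all genes stood there. The 5 genes with a higher ratio with Lin28b-MU were Ctsd, Ctsl, Gaa, Lipa and Hexa, with differences of −0.88, −0.46, −0.38, −0.17 and −0.08. With both tables centred, the difference was above 0 in 16 of the 30 genes, where 50.5% of all genes stood, so the order of the constructs turned in 9 genes with small differences. On that scale Gm2a alone reached 1, Ctsd alone reached −1, and the median fell to 0.08, where that of all genes was 0.01. The constructs' ratios had a Spearman rho of 0.651 across the 30 genes and 0.555 across protein-coding genes.

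The range between the quartiles of the ratio over the 30 genes was 0.83 with Lin28b-WT and 1.06 with Lin28b-MU, beside 1.14 and 1.46 over protein-coding genes and 1.22 and 1.61 over all genes. This difference was not tested, and the backgrounds were not matched on level. All 30 lay above a level of 2 in both inputs, whereas the full tables reach down to 0.1 in the higher library. In the authors' deposited table, the q-value was at or above 0.05 for 3 of the 30 genes in the wild type (Gm2a, Gusb and Ppt1) and for 2 with Lin28b-MU (Lipa and Npc1). That q-value compares 2 libraries, not 2 conditions.

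Recovery moved with the length of the gene. Sorted by span, the 10 shortest genes (4.70 to 13.0 kb) had a median ratio of −0.59 with Lin28b-WT and −0.94 with Lin28b-MU, and the 10 longest (23.5 to 85.8 kb) had 0.05 and −0.13. In protein-coding genes cut at the same spans, the shortest class had −0.72 and −1.29 and the longest 0.02 and −0.06. The 10 lysosomal genes between them had −0.26 and −0.92, where the background class had −0.32 and −0.64. Spearman's rho between span and ratio across the 30 genes was 0.460 with Lin28b-WT and 0.387 with Lin28b-MU, and between span and the difference 0.059; across 11260 protein-coding genes the values were 0.380, 0.541 and −0.301. These correlations are over genes within the same libraries. The part of span in the ratio of any single gene was not tested.

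The authors' peaks mark stretches along the genes. The labels do not give the control of these calls, so a peak need not mean recovery above input. Per the peak names, the authors called peaks for each construct and strand separately, and a peak was given to a gene where its summit lay inside the gene's span on its strand. The wild-type list had 29 peaks in 11 of the 30 genes, and the mutant list had 18 peaks in 6. Over all genes in both tables, 25.1% held a wild-type peak and 18.6% a mutant peak. Among 9285 protein-coding genes at a level of 2 or more in both inputs the shares were 33.9% and 25.3%, and among all 11260 protein-coding genes 29.4% and 21.9%. The 11 and 6 of 30 seen here lie near these backgrounds. Both lists had peaks in 4 genes, Lamp2, Scarb2, Ctsd and Asah1, where 13.0% of all genes, 15.4% of protein-coding genes and 18.2% of those at a level of 2 or more had both. Peaks were in the wild-type list alone for Lamp1, Npc1, Ctsz, Tpp1, Man2b1, Manba and Ppt1, and in the mutant list alone for Ctsl and Lipa. The only peak of Ctsz was weak, with a fold of 1.25 and a −log10 q of 1.49, where the smallest of the wild-type list was 1.31. With peaks of −log10 q of at least 5, Ctsz dropped out and 10 genes held a wild-type peak. None of the 4 activators and soluble non-enzymes had a peak.

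Of the 29 wild-type peaks in these genes, 9 overlapped a mutant peak by at least 1 base (31.0%), where 50.5% of the wild-type peaks in protein-coding genes did. Of the 18 mutant peaks, 9 overlapped a wild-type peak (50.0%, where 37.1% did). The authors' fold at the summit ran from 1.25 to 14.0 in the wild-type peaks and from 1.44 to 7.99 in the mutant peaks, with medians of 2.96 and 4.05; in protein-coding genes the medians were 3.74 and 4.19. The fold is the authors' own value. The lists were called separately, so folds of different lists are given side by side and show no change between the constructs. In the last 10% of the span lay 10 of 29 wild-type peaks and 3 of 18 mutant peaks, where 37.3% and 29.7% did in protein-coding genes.

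**Figure D3:**
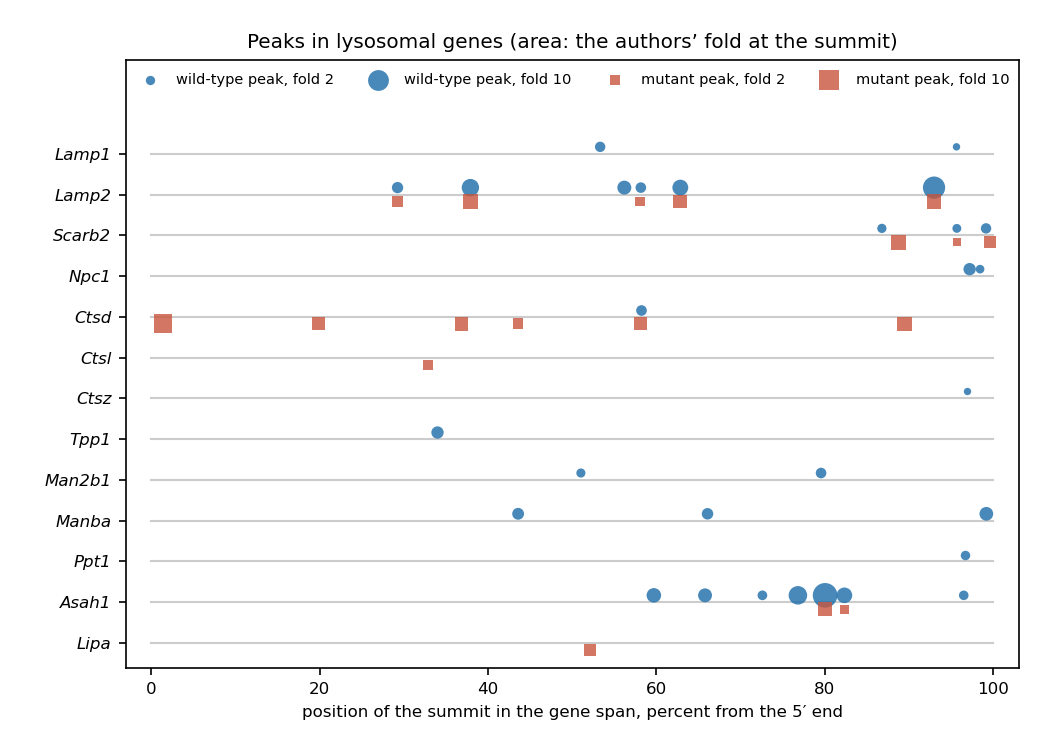
Peaks in the 13 lysosomal genes that had any, placed by the summit in percent of the gene's span from the 5′ end; circles are wild-type peaks and squares mutant peaks, with area proportional to the authors' fold. Lamp2 shows paired symbols at 5 places, Asah1 a run of wild-type circles between 59.7 and 82.3 percent, and Ctsd mutant squares spread from 1.40 to 89.5 percent.

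Lamp2 (chrX:38401357-38456454, minus strand, 55.1 kb, GRCm38) shared most of its peaks between the constructs. It held 6 wild-type and 5 mutant peaks, and all 5 mutant peaks overlapped a wild-type peak. The wild-type peak with the highest fold lay 3.87 kb before the 3′ end (chrX:38405063-38405718, fold 11.4), and a mutant peak lay at the same place (chrX:38405065-38405320, fold 4.61). A long peak covered 2478 bases in the wild type (chrX:38419548-38422025, fold 5.81) and 2477 bases with Lin28b-MU (fold 4.10). The wild-type peak with no mutant partner was a short one of 210 bases at chrX:38425400-38425609, fold 4.49.

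Asah1 (chr8:41340197-41374773, minus strand, 34.6 kb) held 7 wild-type peaks and 2 mutant peaks. The highest fold among the wild-type peaks of the 30 genes was that of its peak at chr8:41346942-41347250, 14.0, and a mutant peak lay inside the same stretch (chr8:41347018-41347244, fold 4.51). The second mutant peak, of fold 1.76, lay within the wild-type peak of fold 5.65 at chr8:41346159-41346508. The other 5 wild-type peaks, with folds from 2.12 to 7.93, had no mutant counterpart. Of these, 4 lay between 59.7 and 76.8 percent of the span and 1 at 96.5 percent.

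Ctsd (chr7:142375911-142388038, minus strand, 12.1 kb) showed the reverse. It held 6 mutant peaks, spread over the span from 1.40 to 89.5 percent, and 1 wild-type peak. The single wild-type peak (chr7:142380939-142381145, fold 2.62) overlapped the mutant peak of fold 4.01 at chr7:142380898-142381157. The mutant peak nearest the 5′ end (chr7:142387761-142387976) had the highest fold, 7.99, and the longest, of 1611 bases, lay at chr7:142376021-142377631 with a fold of 4.87. The summits of 2 of the 6 mutant peaks and of the wild-type peak also lay inside the span of Gm49369.

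Scarb2 held 3 peaks in each list, all within the last 15 percent of its span, but 1 pair overlapped. Its wild-type peaks had folds from 1.82 to 2.49 and its mutant peaks from 1.44 to 5.15. Manba held 3 wild-type peaks, with folds of 3.23, 3.06 and 4.33, the last of 1202 bases at 0.703 kb before the 3′ end. Tpp1 held a single wild-type peak of 480 bases, fold 3.50, at 33.9 percent of the span. Lamp1 and Man2b1 held 2 wild-type peaks each, with folds of at most 2.49 and 2.60, and those of Npc1 had folds of 1.74 and 3.52, both within 1.31 kb of the 3′ end. The lone mutant peaks of Ctsl and Lipa had folds of 2.12 and 3.60.

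Genes with a peak were among those with the higher whole-gene ratios, which use the same IP. The 11 genes with a wild-type peak had ratios from −0.12 to 1.13 (median 0.29), and the 19 without had −1.32 to 0.45 (median −0.59). For the mutant, the 6 with a peak had −0.51 to 0.86 (median 0.22) and the 24 without had −1.75 to 0.42 (median −0.91). The ranges overlapped in both constructs. The genes with a peak were also longer, with a median span of 22.9 kb against 14.8 kb with Lin28b-WT and 34.9 kb against 15.0 kb with Lin28b-MU.

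Other genes of the lysosomal system were followed on 6 lists with 102 genes, of which 94 were in both tables. Over these 94 the median ratio was −0.27 with Lin28b-WT and −0.64 with Lin28b-MU, close to the −0.28 and −0.59 of all genes. In the wild type 9 lay 2-fold above and 19 below input, and with Lin28b-MU 3 above and 32 below. The shares of all genes were 7.74% and 21.7% in the wild type and 5.99% and 37.1% for the mutant, near those of the 94. Further lysosomal enzymes (27 genes) had medians of −0.33 and −0.69, near those of the 30 genes. Galc, encoding the galactosylceramidase, was the highest of them in the wild type: it stood at 12.8 in the input and 45.6 in the IP, 3.55-fold higher, with 16 wild-type peaks and 1 mutant peak. In the mutant it stood at 6.35 and 9.59.

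The list of further lysosomal transporters and membrane proteins (19 genes) had the highest wild-type median of the 6, 0.21. In the wild type 6 of its genes lay 2-fold above input and 3 below, where 7.74% and 21.7% of all genes did. With Lin28b-MU its median was −0.64, with none above and 7 below, where 5.99% and 37.1% of all genes did. Entpd4 is counted in the 6 and in the 7 at very low levels, 0.041 in the WT input and 0.241 in its IP, and 0.141 and 0.062 for the mutant. Laptm4b, encoding a lysosomal transmembrane protein, stood at 37.7 FPKM in the WT input and 125 in its IP, and at 36.7 and 36.6 for the mutant. Cd164, encoding a sialomucin, stood at 66.2 and 161 for the wild type and 60.1 and 30.9 for the mutant. In both genes the wild-type IP was the only library that stood apart upward, by 3.32-fold and 2.43-fold over input. Tmem106b was above input with both constructs, 2.25-fold with Lin28b-WT and 1.37-fold with Lin28b-MU. Atp13a2, encoding a lysosomal polyamine exporter, went the other way, 3.37-fold below input with Lin28b-WT and 1.56-fold with Lin28b-MU.

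The subunits of the V-ATPase, the proton pump that acidifies lysosomes, had the lowest medians, −0.51 with Lin28b-WT and −1.24 with Lin28b-MU. None of the 17 was 2-fold above input with Lin28b-WT and 5 were below, where 7.74% and 21.7% of all genes were. With Lin28b-MU 1 was above and 9 below, where 5.99% and 37.1% of all genes were. Atp6v1f, a small subunit of the catalytic part with a span of 2.80 kb, stood at 70.9 and 17.5 for the wild type and 84.8 and 7.72 for the mutant, the lowest ratios of the list with both constructs. Atp6v0e, with a longer span of 36.4 kb, was also low, at 49.5 and 18.5 for the wild type and 50.3 and 5.37 for the mutant. The catalytic subunit gene Atp6v1a, with a span of 54.3 kb, was above input with both constructs, at 24.9 and 42.8 for the wild type and 22.5 and 45.1 for the mutant.

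In the sorting and control genes the order of the constructs differed from list to list on the deposited scale. Among all genes the ratio was higher with the wild type in 63.2% on that scale and in 50.5% after centring. The lists were not counted after centring. The 9 genes of mannose 6-phosphate sorting had medians of −0.30 with Lin28b-WT and −0.20 with Lin28b-MU, and in 3 of them the ratio was higher with the wild type on the deposited scale. Igf2r, encoding the large mannose 6-phosphate receptor, stood at 21.3 and 17.2 for the wild type and 32.6 and 54.0 for the mutant, with 17 mutant peaks and no wild-type peak. M6pr, encoding the small receptor, had the opposite order, at 41.8 and 51.3 for the wild type and 57.2 and 38.5 for the mutant. The 8 genes of the HOPS and CORVET tethering complexes, which bring vesicles to lysosomes, had medians of −0.21 and −0.00, and the wild-type ratio was the higher in 2. Vps16 stood at 12.9 and 6.06 for the wild type and 11.9 and 15.1 for the mutant.

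The 14 measured regulators, which sense nutrients at the lysosome or control its genes, had medians of −0.26 and −0.82. With Lin28b-WT none lay 2-fold above input and 3 below, where 7.74% and 21.7% of all genes did. With Lin28b-MU 1 lay above and 6 below, where 5.99% and 37.1% of all genes did. The kinase gene Mtor, with a span of 109 kb, stood at 10.8 and 11.4 for the wild type and 10.2 and 20.8 for the mutant. The small Ragulator subunit gene Lamtor2, with a span of 3.26 kb, stood at 53.6 and 22.7 for the wild type and 37.8 and 4.41 for the mutant. Lamtor1, with a span of 20.8 kb, stood at 39.6 and 21.9 for the wild type and 39.8 and 6.05 for the mutant. Mtor was thus 2.03-fold above input and Lamtor2 8.54-fold below it in the mutant IP. The medians of these lists were not tested against each other or against the 30 genes.

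**Figure D4:**
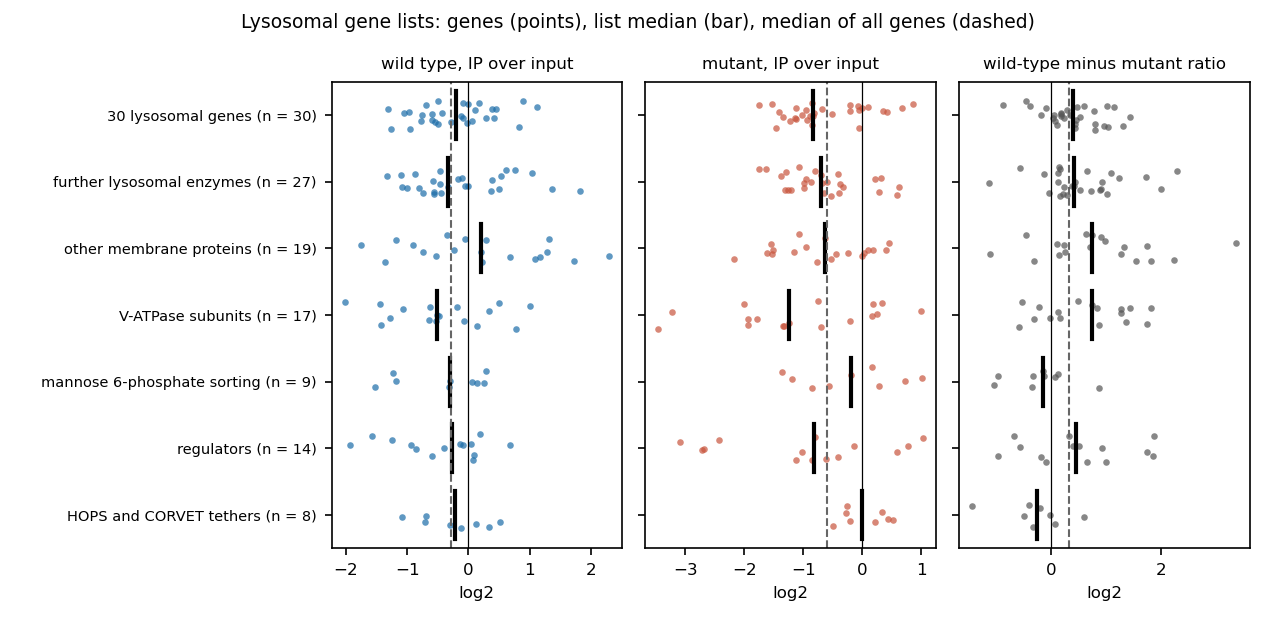
Log2 ratio of IP over input in the wild type (left) and the mutant (middle), and their difference (right), for the 30 lysosomal genes and 6 lists of related genes; points are genes, bars list medians and dashed lines the median of all genes. The 30 genes lie around the dashed lines, other membrane proteins have the highest wild-type median (0.21) and V-ATPase subunits the lowest medians (−0.51 and −1.24).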

How the data were processed

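RNA immunoprecipitation libraries were analysed from the tables that the authors deposited. The submitters' processing notes name bedtools, HOMER 4.11.1, HISAT2 2.1.0 and MACS2 2.2.7.1 beside the builds GRCm38 and mm10, without their order or use. Per the labels' protocols, libraries came from a stranded mRNA kit. The levels the authors deposited carry no unit in the header and were read as FPKM from their values; library depth is unknown, so no counting interval was computed. The deposited log2 ratio, per the file headers IP over input, equals log2 of the levels with 0.01 added to within 1.57e-09. The p-value and q-value columns are the authors', from a test the labels do not name. The peak lists the authors deposited hold a display score (not used), the fold ratio at the summit and −log10 of the p-value and q-value. The labels do not say what the control for the peaks was.

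Symbols came from the mutant table and were joined to those of the wild type by gene identifier (13478 genes in both, of 14755 and 14427). Ratios were computed for all genes with Python 3.11.15, pandas 2.3.3 and NumPy 2.4.6 and the scripts were tested on simulated data; 2-fold counted as a call, with the share of all genes called as background. With 1 library per group no test was run. All 30 genes matched a RefSeq gene of the same build by symbol. The genes, lists and rules were chosen with earlier results of these data known. All 30 genes are named. From the 6 lists, only genes at the extremes of their list and at a level of at least 1 are named, apart from Entpd4, named for its low levels. Gm49369 and Tmppe were named for their overlap after their values were seen. Alternatives were other pseudocounts, centring, a level filter, the authors' q-value, 1.5-fold, and other peak and overlap rules. Sequence under the peaks and exon models were not analysed here.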

Additional observations from a re-analysis of the deposited data

Results flagged for a closer look

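In 9 of the 30 genes the IP lay on opposite sides of its input in the constructs, where 28.4% of all genes did so; the difference was not tested, since each construct had 1 library. In 7 of the 9 the ratio was above 0 in the wild type and below 0 in the mutant. The wild-type log2 ratio minus the mutant log2 ratio was 1.13 for Tpp1, 1.03 for Asah1, 0.95 for Manba, 0.80 for Ppt1, 0.46 for Man2b1, 0.19 for Npc1 and 0.10 for Gusb. In the other two it was −0.88 for Ctsd and −0.17 for Lipa. In 8 of the 9, all but Gusb, which had no peak, more peaks were in the list of the construct with the higher ratio; the peaks come from the same IPs as the ratios. In 7 of the 9, all but Tpp1 and Asah1, at least 1 of the ratios lay within 1.13-fold of input. With each table centred, 6 of the 30 genes lay on opposite sides (Lamp1, Ctsz, Tpp1, Ppt1, Gm2a and Ctsl), of which Tpp1 and Ppt1 are among the 9, and 31.0% of all genes did so.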

How the results depend on the processing

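Of 76 alternative values of the counts and medians, 49 held (a count within 1.5 times, a median equal to 2 decimals), 26 moved and 1 changed sign. Centring each table turned the wild-type median from −0.20 to 0.093 and moved the mutant median to −0.24 and the difference to 0.079; called genes became 3 above and 1 below input in each construct, and 1 gene each reached a difference of 1 and −1. A pseudocount of 1 gave medians of −0.19, −0.81 and 0.35, with 3 genes at a difference of 1. A 1.5-fold rule gave 3 above and 10 below in the wild type, 2 above and 18 below in the mutant, and 2 genes higher in the mutant input. In settings chosen after seeing the data, without Ctsh and Gm2a the median difference was 0.32, and without the 11 genes whose span overlaps another gene the wild-type median was −0.28 and 6 genes lay below input in the mutant. With peaks of fold 4 or more, 3 genes held a wild-type peak and 2 held both kinds, with 10 peaks in each list and 4 of each overlapping. Among single genes, a pseudocount of 1 ended the mutant calls of Gm2a, Ctsh and Naglu, the wild-type call of Cln3 and the differences of 1 of Gm2a and Npc2. No paired analysis was possible because each group had 1 library. Unknown depth leaves the counting error of the lowest levels, such as Gm2a in the mutant, unstated.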
